A study of Mus musculus with 12 samples.

Results

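The myogenic regulatory factors Myod1, Myf5, Myf6 (also called Mrf4) and Myog (myogenin) were examined for 6 histone modifications before and after muscle differentiation. The 4 genes were chosen by name, as the complete family of muscle-specific basic helix-loop-helix (bHLH) transcription factors, and are 4 of the 22350 protein-coding genes annotated on mouse chromosomes 1 to 19 and X in the genome build mm9. Chromatin immunoprecipitation and sequencing (ChIP-seq) was performed in C2C12, a subclone of a C3H mouse line of satellite-cell myoblasts, at passages 15 to 18. Myoblasts were nearly confluent in 10% serum. Myotubes, multinucleate cells formed by fusion, were taken about 5 days after the serum was withdrawn and were freed of unfused cells by light trypsin treatment. Each of H3K4me3, H3K4me2, H3K4me1, H3K27ac, H3K27me3 and H3K36me3 was measured in 1 library per cell type, 12 in all, with no input library and no replicate. Differences are therefore between 2 libraries, and every interval is a 95% interval for counting error alone.

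The myogenic bHLH factors pair with E-proteins and bind E-boxes, the hexamer CANNTG, in muscle genes. Myod1 and Myf5 commit cells to the muscle lineage and are already active in proliferating myoblasts, Myog is switched on when myoblasts leave the cell cycle and is required for their fusion into fibres, and Myf6 is best known from maturing and adult fibres. H3K4me3 marks active promoters, H3K4me1 marks enhancers and promoter flanks, H3K4me2 is found at both, and H3K27ac marks active promoters and enhancers. H3K27me3 is the Polycomb mark of silent developmental genes, and H3K36me3 is laid down along transcribed gene bodies.

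In mm9, Myod1 (ENSMUSG00000009471.3) occupies 53631844 to 53634462 of chromosome 7 and Myog (ENSMUSG00000026459.4) 136186581 to 136189124 of chromosome 1, both transcribed from the plus strand. Myf5 (ENSMUSG00000000435.1, 106919964 to 106923190) and Myf6 (ENSMUSG00000035923.3, 106929916 to 106931785) share a locus on the minus strand of chromosome 10, with Myf6 upstream, 8595 bp between their transcription start sites (TSS) and 6725 bp between the genes. Each gene has 1 annotated TSS and is between 1870 and 3227 bp long.

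The 250 bases before each TSS are shown because the promoter values below are centred there. They are read from the mm9 genome 5′ to 3′ on the strand of the gene, and capitals mark each CANNTG.
Myod1 promoter, chr7:53631594-53631843, plus strand: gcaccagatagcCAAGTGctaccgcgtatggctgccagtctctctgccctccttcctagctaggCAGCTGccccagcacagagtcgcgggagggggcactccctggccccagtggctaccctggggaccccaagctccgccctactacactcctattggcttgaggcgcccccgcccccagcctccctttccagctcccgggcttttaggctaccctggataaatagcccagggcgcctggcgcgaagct
Myf5 promoter, chr10:106923191-106923440, minus strand: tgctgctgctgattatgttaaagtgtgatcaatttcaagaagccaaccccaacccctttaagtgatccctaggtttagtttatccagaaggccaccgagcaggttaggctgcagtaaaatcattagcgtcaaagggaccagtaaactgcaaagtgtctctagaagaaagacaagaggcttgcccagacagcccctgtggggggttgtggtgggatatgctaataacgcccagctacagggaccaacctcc
Myf6 promoter, chr10:106931786-106932035, minus strand: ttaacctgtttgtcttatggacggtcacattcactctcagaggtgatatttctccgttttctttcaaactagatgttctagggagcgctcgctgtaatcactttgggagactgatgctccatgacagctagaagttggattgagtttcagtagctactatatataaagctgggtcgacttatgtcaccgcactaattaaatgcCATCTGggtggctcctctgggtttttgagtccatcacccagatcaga
Myog promoter, chr1:136186331-136186580, plus strand: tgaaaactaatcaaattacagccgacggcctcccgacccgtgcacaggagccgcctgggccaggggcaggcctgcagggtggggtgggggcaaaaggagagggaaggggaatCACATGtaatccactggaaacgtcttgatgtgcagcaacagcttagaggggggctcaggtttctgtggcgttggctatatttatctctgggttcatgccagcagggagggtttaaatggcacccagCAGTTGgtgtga

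The 4 promoters differed in composition. That of Myod1 had 65.6% G and C and 11 CpG, more G and C than 76% of all promoters, against a median of 56% and 10 CpG. The Myog promoter was close to that median at 56.4% with 7 CpG, Myf5 had 48.8% with 3 CpG, and Myf6 44% with 6 CpG. CANNTG occurred 2 times before Myod1 and Myog, 1 time before Myf6 and 0 times before Myf5, while 61.5% of 22345 promoters of this length held at least 1. The variant CAGCTG occurred once, before Myod1, and 12.1% of promoters held it. CACCTG, or CAGGTG when read on the other strand, was found before none of the 4 and in 16.7% of promoters. Before Myf6 a match to the MEF2 motif, found in 2.67% of promoters, overlapped a TATAAA, which was found in 11.6% on either strand.

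Some of the stretches outside the promoters that carried the H3K27ac described below are shown by the 300 bases with the most H3K27ac reads in each, on the strand of the gene, with each CANNTG in capitals.
Myod1 4.3 kb upstream, chr7:53627575-53627874, plus strand: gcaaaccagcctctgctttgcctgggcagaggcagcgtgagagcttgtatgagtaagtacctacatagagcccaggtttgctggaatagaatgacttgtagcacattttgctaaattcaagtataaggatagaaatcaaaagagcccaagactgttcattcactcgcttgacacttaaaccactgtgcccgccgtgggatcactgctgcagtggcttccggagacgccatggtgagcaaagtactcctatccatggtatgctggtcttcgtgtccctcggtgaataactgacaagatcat
Myf6 5.5 kb upstream, chr10:106936966-106937265, minus strand: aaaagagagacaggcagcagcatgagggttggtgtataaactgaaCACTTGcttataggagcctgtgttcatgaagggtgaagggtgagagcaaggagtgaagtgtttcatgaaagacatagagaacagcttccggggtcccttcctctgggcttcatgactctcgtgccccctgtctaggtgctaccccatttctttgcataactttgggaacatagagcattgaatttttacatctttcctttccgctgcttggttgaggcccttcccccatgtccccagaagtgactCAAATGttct
Myog 6.6 kb upstream, chr1:136180012-136180311, plus strand: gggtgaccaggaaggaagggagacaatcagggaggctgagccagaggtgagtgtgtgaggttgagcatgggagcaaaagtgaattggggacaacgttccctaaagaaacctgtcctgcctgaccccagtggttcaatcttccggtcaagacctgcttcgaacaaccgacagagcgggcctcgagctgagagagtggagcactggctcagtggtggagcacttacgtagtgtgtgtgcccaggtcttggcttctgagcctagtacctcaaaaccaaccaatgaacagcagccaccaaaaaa
Myog 12.7 kb upstream, chr1:136173899-136174198, plus strand: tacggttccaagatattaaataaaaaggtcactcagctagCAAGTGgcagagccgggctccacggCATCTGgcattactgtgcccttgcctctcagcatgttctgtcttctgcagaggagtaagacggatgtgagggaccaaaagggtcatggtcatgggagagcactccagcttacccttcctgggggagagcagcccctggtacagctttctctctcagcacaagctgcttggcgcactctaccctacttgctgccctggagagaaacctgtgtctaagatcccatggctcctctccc

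The H3K27ac reads in these windows, myoblasts first, were 2 and 15 at 4.3 kb upstream of Myod1, 8 and 52 upstream of Myf6, and 18 and 108 at 6.6 kb and 1 and 131 at 12.7 kb upstream of Myog. Of these 4 windows 2 held CANNTG, with 2 matches upstream of Myf6 and 2 at 12.7 kb upstream of Myog. At least 1 match was present in 78.4% of the 43423 myotube H3K27ac peaks whose densest 300 bases were read in the same manner, and CACCTG or CAGGTG, found in none of the 4, in 21.9%. The windows at 4.3 kb upstream of Myod1 and 6.6 kb upstream of Myog held no CANNTG.

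The libraries held 1858771 to 7033100 reads, or 0.727 to 2.75 reads per kb on average, the fewest in myoblast H3K27ac. Levels below are reads relative to that mean (fold over the genome mean) in the 2001 bp centred on the TSS. A level was taken to be above the mean where the whole interval was. At all 7 myotube markers, H3K4me3, H3K27ac and H3K36me3 were above the mean in myotubes, against 2, 4 and 4 of 7 in myoblasts. H3K4me3 at the 4 markers of cycling cells had a median of 38.2-fold in myoblasts and 12.8-fold in myotubes. Of 9 markers of blood, liver, neural, endothelial and fat cells, 2 were above the mean for H3K4me3 in myoblasts and 1 in myotubes. For H3K27ac it was 1 and 1, and for H3K36me3 1 and 2. Of 3 fibroblast markers 2 and 1 were above it for H3K4me3, 2 and 2 for H3K27ac and 2 and 1 for H3K36me3. The fat-cell gene Pparg was above it for all 3 marks in both cell types. Its H3K27ac was 40.6-fold in myoblasts and 26-fold in myotubes. Over all promoters the shares above it were 54.6% and 54.3% for H3K4me3 and 51.6% and 50.6% for H3K27ac. In such bulk chromatin, fewer cells with a mark and less of the mark per cell cannot be told apart.

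At all 4 promoters H3K4me2, H3K4me1 and H3K27ac were above the mean in both cell types, and at none was H3K27me3. With only 4 promoters, these counts do not set the family apart from the shares over all promoters given beside them. H3K4me2 was above the mean at 4 of 4 promoters in either cell type, beside 61.7% of all promoters in myoblasts and 59% in myotubes. H3K4me1 was above it at 4 of 4 in both, beside 48.6% and 47.6%, and H3K27ac at 4 of 4 in both, beside 51.6% and 50.6%. H3K4me3 was above the mean at 3 of 4 in both, beside 54.6% and 54.3%, the exception being Myf6. H3K27me3 was above it at 0 of 4, beside 18.1% and 12.6%, and H3K36me3 at 1 of 4, Myod1, beside 13.7% and 11.5%.

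**Figure D1:**
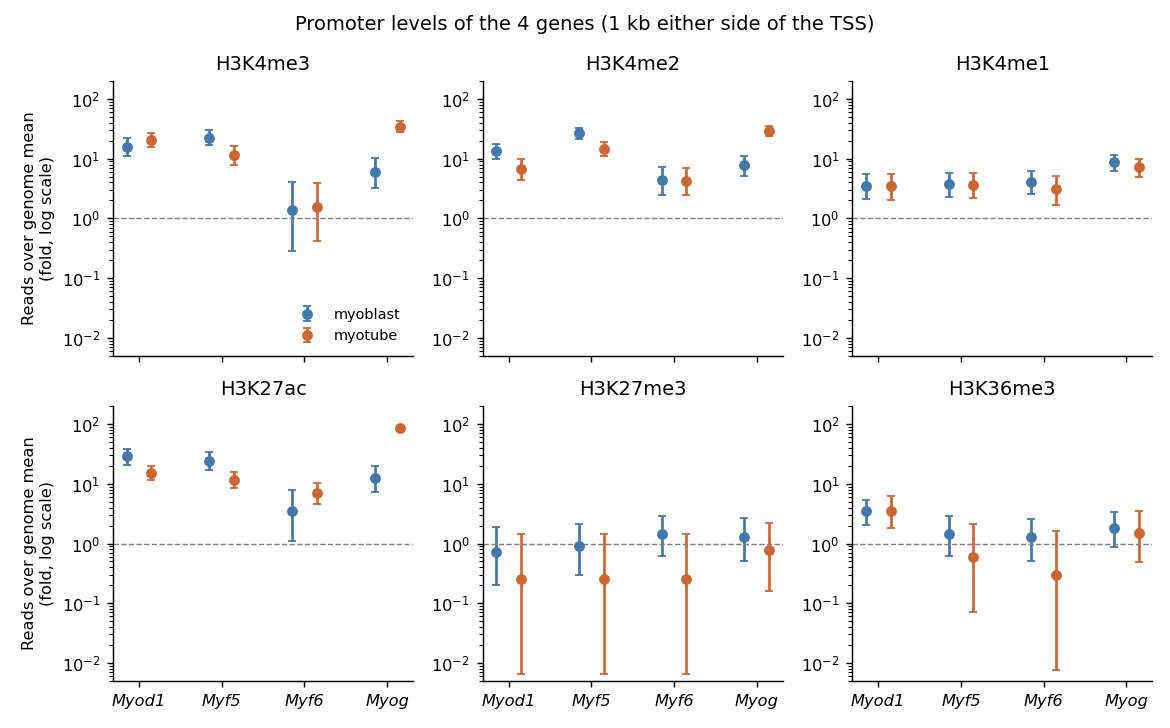
Fold over the genome mean (log axis) of the 6 marks within 1 kb of the TSS of Myod1, Myf5, Myf6 and Myog in myoblasts (blue) and myotubes (orange). Points are single libraries, bars are exact 95% Poisson intervals, the dashed line is the genome mean. Myog reached 84.4-fold for H3K27ac in myotubes, and Myf6 stayed near the mean for H3K4me3 in this window, though not over its gene body.

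Myog had the promoter that differed most between the cell types. H3K4me3 gave 13 reads in myoblasts, 5.99-fold (3.19 to 10.2), and 89 in myotubes, 34.5-fold (27.7 to 42.5). H3K27ac gave 18 reads, 12.4-fold (7.34 to 19.6), and 312 reads, 84.4-fold (75.3 to 94.3), a level above that of 99.2% of all promoters in myotubes. H3K4me2 gave 26 and 107 reads, 7.74-fold (5.06 to 11.3) and 28.8-fold (23.6 to 34.8). None of these intervals overlapped between the cell types. H3K4me1 did not share that difference, with 44 and 35 reads, 8.68-fold (6.31 to 11.7) and 7.13-fold (4.97 to 9.92). In myoblasts this H3K4me1 level was above that of 92.8% of all promoters while H3K4me3 was above that of 50.9%, so the promoter of Myog was well marked by H3K4me1 and moderately by H3K4me3 before differentiation.

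Ratios of myotube over myoblast reads were scaled by the total reads of each library. A promoter was called where the ratio was at least 2 or at most 0.5 and the libraries together held at least 20 reads. Myog was called higher for H3K4me3, ratio 5.76 (3.2 to 11.2), the 1 call among the 3 members with enough reads, beside 3.88% of 11493 promoters called higher. It was called higher for H3K4me2, 3.71 (2.4 to 5.94), the 1 call among 4, beside 2.54% of 13365 promoters. For H3K27ac, 2 of 4 members were called higher beside 5.96% of 10875 promoters, Myog at 6.82 (4.24 to 11.7) and Myf6 at 2.05. The H3K4me1 ratio of Myog was 0.821 (0.511 to 1.31), and 0 of 4 members were called higher or lower for this mark, beside 9.94% higher and 20.5% lower of 11918 promoters.

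Active promoters as a class shifted between the libraries. Where an H3K4me3 peak was deposited for both cell types, at 10488 promoters, ratios had a median of 0.562 for H3K27ac (-0.83 on the log2 scale), 0.621 for H3K4me2 (-0.69), 0.869 for H3K4me3 (-0.20), 0.815 for H3K36me3 (-0.29), 0.84 for H3K27me3 (-0.25) and 1.03 for H3K4me1 (0.05). Relative to these medians the Myog ratios were 12.1 for H3K27ac, 6.63 for H3K4me3, 5.98 for H3K4me2 and 0.795 for H3K4me1.

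Myod1, the factor that can turn fibroblasts into muscle cells, was marked in both cell types. Its H3K4me3 was above that of 57.8% of all promoters in myoblasts and 67% in myotubes. For H3K27ac these shares were 78.7% and 77.3%, and for H3K4me2 50% and 48.2%. H3K4me3 gave 34 reads in myoblasts, 15.7-fold (10.9 to 21.9), and 54 in myotubes, 20.9-fold (15.7 to 27.3), and the intervals overlapped. H3K27ac gave 42 and 56 reads, 28.9-fold (20.8 to 39) and 15.1-fold (11.4 to 19.7), and H3K4me2 gave 45 and 25 reads, 13.4-fold (9.77 to 17.9) and 6.72-fold (4.35 to 9.92), so both of these were lower in the myotube library. The H3K4me3 ratio was 1.34 (0.854 to 2.12), that of H3K27ac 0.524 (0.345 to 0.802) and that of H3K4me2 0.501 (0.295 to 0.835), none of them called. Relative to the active promoters they came to 1.54, 0.933 and 0.807. H3K4me1 gave 18 and 17 reads. Myod1 was also the one member with H3K36me3 at its promoter, 19 reads and 3.45-fold (2.08 to 5.39) in myoblasts and 12 reads and 3.56-fold (1.84 to 6.21) in myotubes, levels above those of 95.1% and 95.4% of promoters. Its ratio of 1.03 was not called, 0 of 1 tested, beside 9.38% higher and 16.4% lower of 2400 promoters.

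Myf5, the first of the 4 to be expressed in the embryo, had the most H3K4me3 and H3K4me2 reads of the family in myoblasts. H3K4me3 gave 49 reads, 22.6-fold (16.7 to 29.9), in myoblasts and 30 reads, 11.6-fold (7.85 to 16.6), in myotubes. H3K4me2 gave 89 and 55 reads, 26.5-fold (21.3 to 32.6) and 14.8-fold (11.1 to 19.2), and H3K27ac 35 and 43 reads, 24.1-fold (16.8 to 33.5) and 11.6-fold (8.42 to 15.7). All 3 levels were lower in myotubes, with intervals that did not overlap. The H3K27ac ratio of 0.483 (0.302 to 0.778) was the only one of 4 members called lower, beside 40.9% of all promoters tested, and relative to the active promoters it was 0.86 and no longer called. The H3K4me3 ratio was 0.515 (0.316 to 0.828), or 0.593 relative to active promoters, and the H3K4me2 ratio 0.558 (0.391 to 0.789), or 0.898. Neither of them was called, so 0 of 3 members were lower for H3K4me3, beside 8.03% of promoters, and 0 of 4 for H3K4me2, beside 36.6%. H3K4me1 gave 19 and 18 reads. Over all 24 pairs of a member and a mark, 16 had enough reads, 4 were called higher and 1 lower. Scaled by the active promoters 4 were higher and 0 lower, and scaled by 10 kb windows without any peak 3 were higher and 4 lower.

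Within 1 kb of the TSS, Myf6 had the lowest H3K4me3, H3K4me2 and H3K27ac of the family. Its H3K4me2 in both cell types and its H3K27ac in myotubes were not separated from those of the next gene. H3K4me3 gave 3 and 4 reads, 1.38-fold (0.285 to 4.04) and 1.55-fold (0.423 to 3.97), which cannot be told from the genome mean in this window at this depth. H3K4me2 gave 15 and 16 reads, 4.47-fold (2.5 to 7.37) and 4.3-fold (2.46 to 6.98), and H3K4me1 21 and 15 reads, 4.14-fold (2.57 to 6.34) and 3.06-fold (1.71 to 5.04), nearly equal between the cell types. H3K27ac gave 5 reads, 3.44-fold (1.12 to 8.02), in myoblasts and 26 reads, 7.03-fold (4.59 to 10.3), in myotubes. Its ratio of 2.05 had an interval of 0.773 to 6.82 that includes 1. The Myf6 promoter was above 33.2% of all promoters in myoblasts and 37.9% in myotubes for H3K4me3. These shares were 42% and 45% for H3K4me2, 74% and 64.9% for H3K4me1, and 48.4% and 62.2% for H3K27ac. Over the Myf6 gene body H3K4me3 was above the mean, 4.44-fold (2.03 to 8.43) in myoblasts and 9.13-fold (5.72 to 13.8) in myotubes.

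Marks around Myf6 lay after the TSS rather than before it. Within 2 kb downstream H3K4me3 gave 9 and 24 reads against 3 and 2 upstream, and H3K4me2 gave 41 and 51 against 1 and 9. The share downstream was thus 97.6% for H3K4me2 in myoblasts and 85% in myotubes, beside medians of 60.6% and 60.7% at active promoters. At Myog the H3K4me3 of myotubes leaned the same way, with 168 reads downstream and 13 upstream, 92.8% beside a median of 63.9%. At Myod1, H3K27ac gave 9 reads upstream of the TSS in myoblasts and 42 in myotubes, and 49 and 55 reads downstream. The downstream share was thus 84.5% and then 56.7%, the latter equal to the median of active promoters. These reads are unscaled, and scaling by total reads multiplies the myotube counts of H3K27ac by 0.393. So scaled, the upstream side was higher in myotubes and the downstream side lower. No interval was computed for either side, and 9 upstream reads in myoblasts are few, so a difference upstream is not established.

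**Figure D2:**
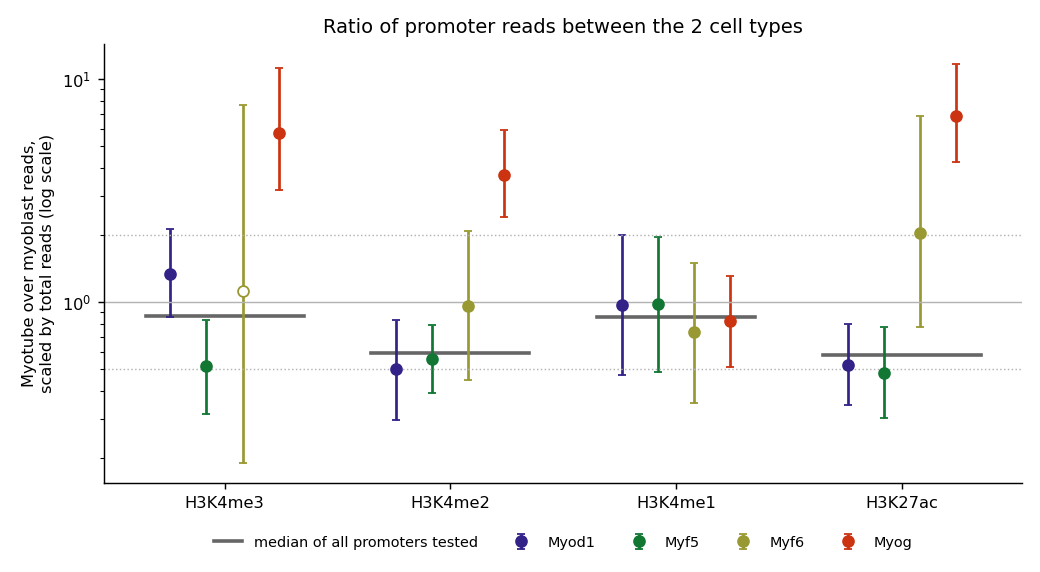
Myotube over myoblast ratio of promoter reads, scaled by total reads (log axis), for Myod1, Myf5, Myf6 and Myog and 4 marks, with exact 95% intervals. Thick grey lines are the medians of all promoters tested, 0.869, 0.59, 0.861 and 0.577 from left to right, dotted lines mark 2 and 0.5, and the open point had too few reads for a call. Myog stands above the other genes for H3K4me3, H3K4me2 and H3K27ac and among them for H3K4me1.

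The order of the 4 promoters changed between the cell types. In myoblasts H3K4me3 followed Myf5, Myod1, Myog and Myf6 with 49, 34, 13 and 3 reads, where Myf5 over Myod1 was 1.44 (0.912 to 2.3) and could not be separated, and Myod1 over Myog was 2.62 (1.35 to 5.4). In myotubes it followed Myog, Myod1, Myf5 and Myf6, and each neighbour differed from the next, Myog over Myod1 by 1.65 (1.16 to 2.36) and Myod1 over Myf5 by 1.8 (1.13 to 2.91). For H3K27ac in myoblasts Myod1 and Myf5 were not separated at 1.2 (0.748 to 1.94), and Myog followed below Myf5 by 1.94 (1.07 to 3.65). In myotubes Myog exceeded Myod1 by 5.57 (4.18 to 7.54), while Myod1 and Myf5, at 1.3 (0.86 to 1.99), and Myf5 and Myf6, at 1.65 (0.993 to 2.8), were not separated. For H3K4me1 Myog came first in both cell types and the other 3, with 15 to 21 reads each, were not separated.

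Enhancers of Myod1 are known to lie several kilobases upstream, one near the gene and one much further away, and 2 windows were set to include them, from 26 to 17 kb and from 7 to 3 kb before the TSS. The far window was acetylated in both cell types, with 160 H3K27ac reads in myoblasts, 24.5-fold (20.8 to 28.6), and 382 in myotubes, 23-fold (20.7 to 25.4). Their ratio was 0.939 (0.779 to 1.14) by total reads and 1.67 relative to the active promoters. In myoblasts nearly all of these reads lay in the outer 4 kb of the window, from 26 to 22 kb upstream, where the 1 kb tiles held 31, 34, 50 and 44 reads. The tiles from 22 to 18 kb upstream held 0 reads each in myoblasts and 7, 3, 2 and 7 in myotubes, so that the values of the whole window describe its outer stretch. Over the same 9001 bp, H3K4me1 went from 274 reads, 12-fold (10.6 to 13.5), to 142 reads, 6.43-fold (5.42 to 7.58), a ratio of 0.535 (0.434 to 0.658). H3K4me2 had 101 and 108 reads, 0.965 (0.729 to 1.28) by total reads and 1.55 relative to the active promoters. H3K4me3 went the other way from H3K4me1, from 8 reads, 0.82-fold (0.354 to 1.62), to 43 reads, 3.71-fold (2.68 to 4.99), a ratio of 4.52 (2.1 to 11.1).

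The near window was almost bare in myoblasts and marked in myotubes. H3K27ac gave 6 reads, 2.06-fold (0.757 to 4.49), and 104 reads, 14.1-fold (11.5 to 17), a ratio of 6.82 (3.03 to 19). H3K4me2 gave 9 and 70 reads with a ratio of 7.02 (3.49 to 16), H3K4me1 15 and 56 reads with 3.86 (2.15 to 7.34), and H3K4me3 2 and 23 reads with 9.67 (2.39 to 84.6). In myoblasts none of these 4 marks was above the genome mean here, and in myotubes all of them were. H3K27me3, with 2 and 7 reads, was above it in neither.

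**Figure D3:**
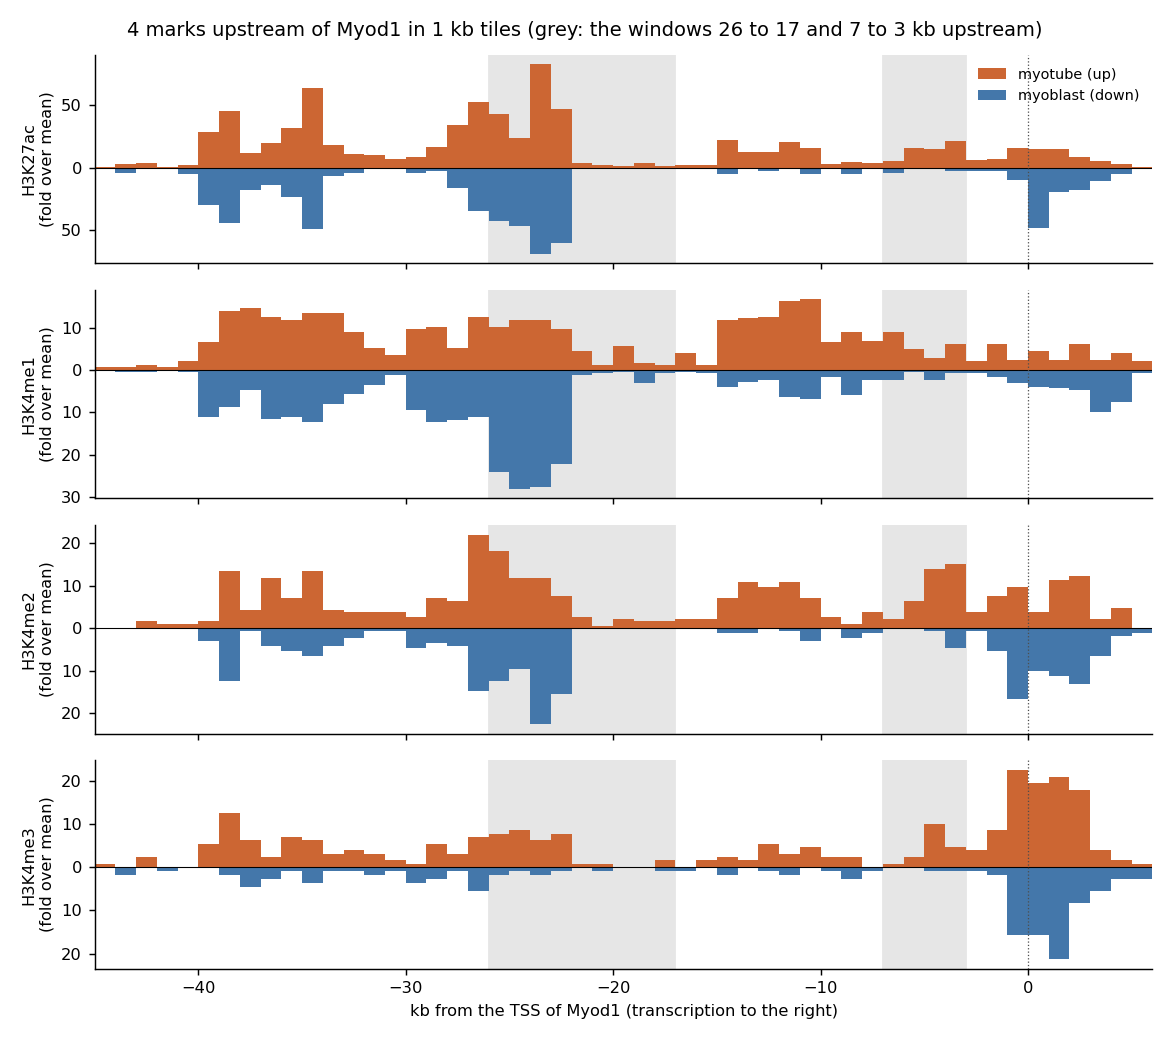
H3K27ac, H3K4me1, H3K4me2 and H3K4me3 in 1 kb tiles upstream of Myod1, as fold over the genome mean, in myotubes (upward bars) and myoblasts (downward bars). Grey areas are the windows 26 to 17 and 7 to 3 kb upstream. The far window holds H3K27ac in both cell types, 24.5-fold and 23-fold, and the near one almost only in myotubes, 2.06-fold and 14.1-fold.

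The upstream region of Myod1 was longer than these windows. Elements were taken as the merged H3K27ac peaks of either cell type within 50 kb of a locus. Their H3K27ac thus chose them, and their values are a description. Their ratios were scaled by total reads. Relative to the active promoters, with a median of 0.562, every H3K27ac ratio is higher. The best marked stretch of 1 kb around Myod1 lay 24 kb upstream in both cell types, with 50 reads, 68.8-fold, in myoblasts and 153 reads, 82.8-fold, in myotubes. The element that holds it, from 24.9 to 21.9 kb upstream, had 128 and 282 reads, a ratio of 0.867 (0.701 to 1.08), and its neighbour from 29 to 25 kb had 70 and 269, 1.51 (1.16 to 2). A second pair lay further out, from 39.9 to 37.7 kb with 66 and 141 reads, 0.84 (0.623 to 1.14), and from 36.9 to 33 kb with 68 and 244, 1.41 (1.07 to 1.88). Between 15.1 and 10.1 kb upstream were elements found nearly only in myotubes, with 4 and 55 reads from 15.1 to 13.5 kb, 5.41 (2 to 20.6), and 4 and 61 reads from 11.9 to 10.1 kb, 6 (2.23 to 22.7). Here H3K4me1 also reached its myotube maximum, with 41 reads in the tile 11 kb upstream, 16.7-fold, against 17 in myoblasts, followed by 40 reads 12 kb and 36 reads 38 kb upstream, whereas the H3K4me1 maximum of myoblasts was 25 kb upstream with 71 reads, 28-fold, against 29 in myotubes. After the gene, within the body of the neighbour Kcnc1 that starts 20 kb downstream of Myod1, 2 elements had reads in the myotube library alone. The one from 26.6 to 27.6 kb had 0 and 41 reads, and against the limit of 3 reads that a count of 0 allows it was at least 5.38-fold higher. The other, from 37.7 to 38.1 kb, had 0 and 8 reads.

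The Myf5 and Myf6 locus is known for enhancers spread over a long upstream region that serve the genes at different places and times in the embryo. In the C2C12 libraries, within 50 kb of the genes, the marks were mostly gathered in the 10 kb before Myf6 and in the genes themselves. In the 50 kb upstream of Myf6, H3K27ac gave 56 reads, 1.54-fold (1.16 to 2), in myoblasts and 340, 3.68-fold (3.3 to 4.09), in myotubes, a ratio of 2.39 (1.8 to 3.23). H3K4me2 gave 98 and 250 reads, 2.3 (1.82 to 2.94), H3K4me1 174 and 335, 1.99 (1.65 to 2.4), and H3K4me3 79 and 113, 1.2 (0.895 to 1.62). Further out, from 150 to 50 kb upstream, H3K27ac was at the genome mean in both, 0.881-fold (0.678 to 1.12) and 0.953-fold (0.817 to 1.1), and H3K4me2 was below it in both, 0.703-fold (0.582 to 0.842) and 0.85-fold (0.722 to 0.993). H3K4me1 was slightly above it in myoblasts only, 1.31-fold (1.17 to 1.46) against 0.999-fold (0.878 to 1.13). This farther stretch was counted as a single window, so short marked elements inside it would not show.

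The single best marked tile of the Myf5 and Myf6 locus in myotubes lay 6 kb upstream of Myf6, with 106 H3K27ac reads, 57.4-fold, against 11 in myoblasts. The element around it, from 6 to 3.94 kb upstream, had 15 and 144 reads, a ratio of 3.78 (2.21 to 6.92). In the next tile, 5 kb upstream, H3K4me2 reached its myotube maximum of the locus with 50 reads, 26.9-fold, against 20, and H3K4me3 had 21 reads, 16.3-fold, against 5. This element had more H3K27ac in myotubes than the promoter of either gene. Beside it, the elements from 9.13 to 7.75 and from 7.71 to 6.88 kb upstream had 11 and 34 and then 9 and 24 reads, with ratios of 1.22 (0.602 to 2.66) and 1.05 (0.471 to 2.56).

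Between Myf6 and Myf5 the ratios of the active marks, scaled by total reads, were close to 1, with intervals that included it. H3K27ac gave 47 and 95 reads, 9.62-fold (7.07 to 12.8) and 7.65-fold (6.19 to 9.35), a ratio of 0.795 (0.555 to 1.15). H3K4me2 gave 152 and 158 reads, 0.938 (0.746 to 1.18), H3K4me1 49 and 49, 1.03 (0.681 to 1.57), and H3K4me3 44 and 47, 0.898 (0.583 to 1.39). Relative to the active promoters these ratios came to 1.41 for H3K27ac, 1.51 for H3K4me2, 1 for H3K4me1 and 1.03 for H3K4me3. In myoblasts the H3K27ac of the locus was highest in this interval and at Myf5, with 16 reads, 22-fold, in each of the tiles 6, 8 and 9 kb downstream of the Myf6 TSS. In myotubes the same tiles had 14, 20 and 19 reads, well below the tile 6 kb upstream of Myf6.

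The Myog locus had more H3K27ac in myotubes than in myoblasts over a wider area than the other loci. Part of that area belongs to the neighbour Ppfia4, 36146 bp long, which starts 42.9 kb downstream of Myog and runs towards it. In the 1 kb tile 13 kb upstream there were 2 reads in myoblasts and 249 in myotubes, 135-fold over the mean and above 99.99% of all tiles of the genome, and in the tile 14 kb upstream 2 and 229. The element from 15.9 to 11 kb upstream had 7 and 654 reads, 1.97-fold and 72.4-fold, a ratio of 36.8 (17.7 to 91.8). The element from 8.6 to 3.34 kb upstream had 50 and 708 reads, 13.1-fold and 72.8-fold, a ratio of 5.57 (4.18 to 7.58). In myotubes these elements were alike in level, but in myoblasts the farther was near the genome mean and the nearer already acetylated, with 25 reads, 34.4-fold, in the tile 7 kb upstream. The element from 12.2 to 13.9 kb downstream, within the body of Ppfia4, had 12 and 128 reads, 4.2 (2.32 to 8.33). One from 51.7 to 53.2 kb downstream, beyond the start of Ppfia4, had 3 and 123, 16.1 (5.39 to 79.3). H3K4me1 at 5 kb upstream was already 19-fold in myoblasts, with 48 reads against 49.

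Among elements away from any TSS whose libraries summed to at least 20 reads, the H3K27ac ratio had a median of at least 4.75 and ranged from 1.35 to 36.8 at 14 elements around Myog. At 12 elements around Myod1 the median was at least 5.25, from 0.393 to 7.74, and at 6 around Myf5 and Myf6 it was 1.65, from 0.426 to 10.2. Both medians are lower bounds because elements with 0 myoblast reads, entered at the limit of 3 reads, are among their middle values. All 14 around Myog, some of them in or beyond Ppfia4, were above 1, while those around the other loci lay on both sides of it. This comparison is not a test, because H3K27ac peaks of either cell type chose the elements. The myotube library, with 4725910 reads against 1858771, also adds more to the sum of 20 reads. No share over such elements elsewhere in the genome was computed.

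**Figure D4:**
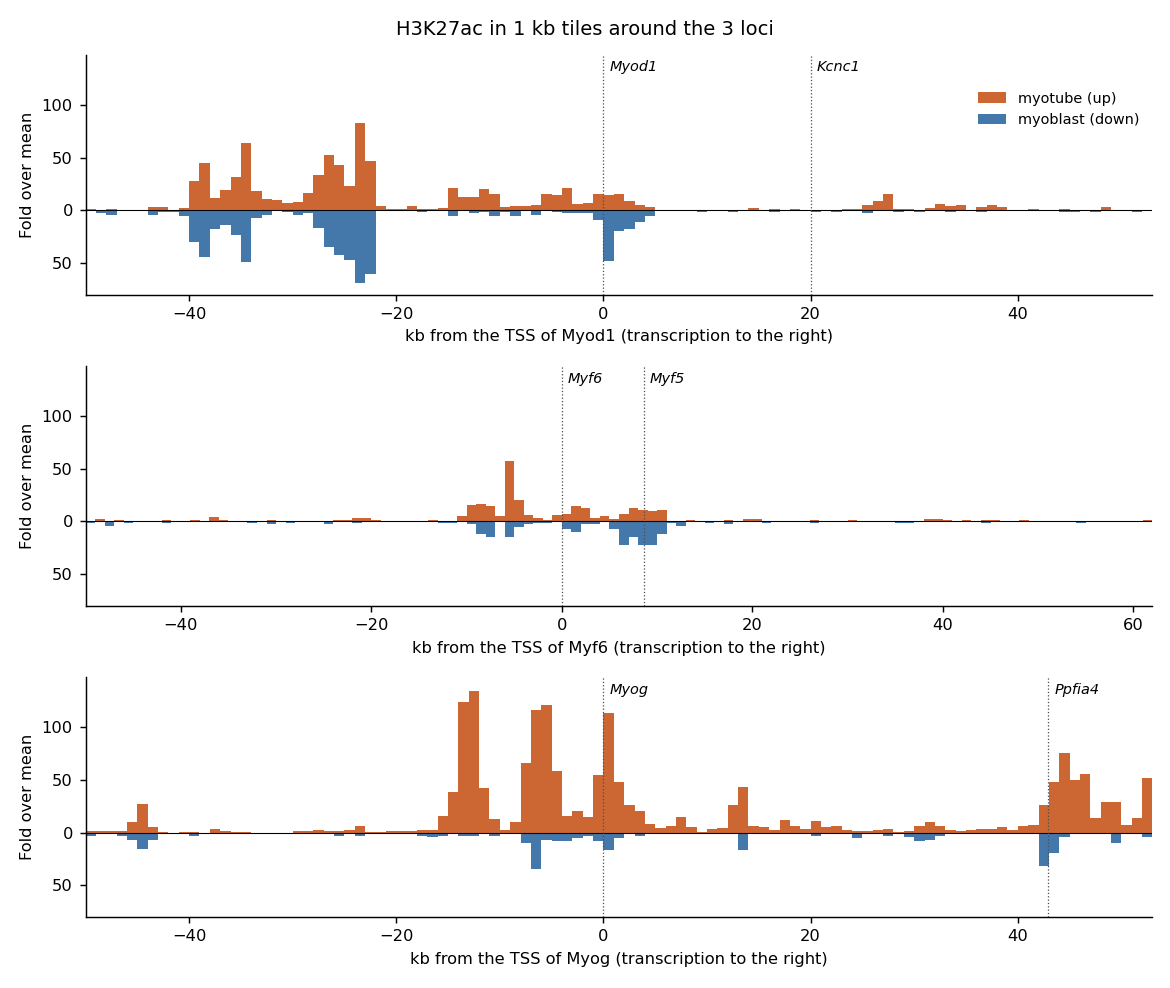
H3K27ac in 1 kb tiles across the Myod1, Myf5 and Myf6, and Myog loci as fold over the genome mean, in myotubes (upward bars) and myoblasts (downward bars). Dotted lines are TSSs. The tallest tile reaches 135-fold at Myog, 82.8-fold at Myod1 and 57.4-fold before Myf6, all in myotubes, while Myod1 alone has tiles above 50-fold in myoblasts.

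The same comparison over fixed 1 kb tiles, which no peak chose, gave the counts for the whole loci. For H3K27ac 32 of 37 tiles with enough reads were called higher in myotubes and 0 lower around Myog, 13 of 28 higher and 3 lower around Myod1, and 4 of 12 higher and 3 lower around Myf5 and Myf6. Across the genome 34.9% of 57617 tiles were called higher and 22.3% lower. The Myf5 and Myf6 share of 33.3% was thus near the background, that of Myod1 was 46.4% and that of Myog 86.5%. The Myog tiles include the body of Ppfia4 and the stretch beyond its start, and the Myod1 tiles include part of Kcnc1. These shares are therefore not those of Myog and Myod1 alone. Scaled by active promoters, 61 tiles of the 3 loci together were higher and 0 lower, against 49 and 6. For H3K4me2, 22 of 32 tiles around Myog, 6 of 19 around Myod1 and 4 of 17 around Myf5 and Myf6 were called higher, and 2 were called lower at each locus, beside 17.3% higher and 29.7% lower of 77063. For H3K4me1, 38 of 62, 15 of 39 and 4 of 12 were called higher and 1, 8 and 2 lower, beside 18.3% and 26.6% of 149022. Neighbouring tiles share the same element and are not independent.

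H3K36me3 over the gene bodies, which follows transcription, separated the genes in another way. Myod1 gave 51 reads in myoblasts, 7.08-fold (5.27 to 9.31), and 31 in myotubes, 7.02-fold (4.77 to 9.97), a ratio of 0.991 (0.613 to 1.58). Myog gave 25 and 24 reads, 3.57-fold (2.31 to 5.28) and 5.6-fold (3.59 to 8.33), a ratio of 1.57 (0.856 to 2.86). Myf5 gave 21 reads, 2.37-fold (1.47 to 3.62), and 5 reads, 0.919-fold (0.298 to 2.14), and in the 2 kb past its end 23 and 4 reads. Its ratio of 0.388 was called lower, with an interval of 0.114 to 1.06 that includes 1. Myf6 gave 7 and 0 reads and was above the mean in neither. Of 3 genes with enough reads, 0 were called higher and 1 lower, beside 7.55% and 7.1% of 16067 gene bodies. The gene bodies are short, so that the counts are small, and Myog, whose promoter marks differed most, was not separable between the cell types by this mark. Upstream of Myf6, H3K36me3 was also lower, with 136 and 40 reads over 50 kb, a ratio of 0.48 (0.328 to 0.687). No protein-coding gene start is annotated within these 50 kb, but bodies of genes that start farther away were not looked up. Further out, from 150 to 50 kb upstream, H3K36me3 was lower too, with 276 and 71 reads, 0.419 (0.319 to 0.546). In myoblasts both windows were at the genome mean, 0.989-fold (0.83 to 1.17) and 1-fold (0.889 to 1.13), so neither was enriched. H3K27me3 was also lower in the farther window, 0.534 (0.409 to 0.691), and not separated in the nearer, 0.842 (0.626 to 1.13).

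H3K27me3 was scarce on all 4 promoters, with 4 and 1 reads at Myod1, 5 and 1 at Myf5, 8 and 1 at Myf6, and 7 and 3 at Myog. Every interval included or lay below the genome mean. The surroundings differed between the loci. Around Myod1 each 10 kb window from 50 kb upstream to 10 kb downstream was between 0.401-fold and 0.802-fold in myoblasts, and from 10 kb onwards, towards the neighbour Kcnc1, a potassium channel gene, it was 2.48-fold to 3.24-fold. In myotubes these windows were between 0.459-fold and 1.07-fold and then between 1.73-fold and 4.29-fold, so the boundary lay between the 2 genes in both cell types. Around Myog every window was between 1.57-fold and 3.06-fold in myoblasts. In myotubes the windows from 20 to 10 kb and from 10 to 0 kb upstream were both 1.07-fold, with 64 and 21 and then 48 and 21 reads, ratios of 0.459 (0.266 to 0.762) and 0.612 (0.348 to 1.04), and the window from 0 to 10 kb downstream had 62 and 24 reads, 0.542 (0.323 to 0.881). The lowest ratio of the locus was further away, from 40 to 50 kb downstream of Myog, a window that holds the TSS of Ppfia4. There 60 and 15 reads gave 2.19-fold and 0.765-fold, 0.35 (0.185 to 0.624). Around Myf5 and Myf6 the windows were between 0.583-fold and 1.42-fold in myoblasts and between 0.306-fold and 1.28-fold in myotubes. The lowest myotube value was in the window from 0 to 10 kb downstream of the Myf6 TSS, with 23 and 6 reads, 0.838-fold and 0.306-fold, a ratio of 0.365 (0.122 to 0.922).

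**Figure D5:**
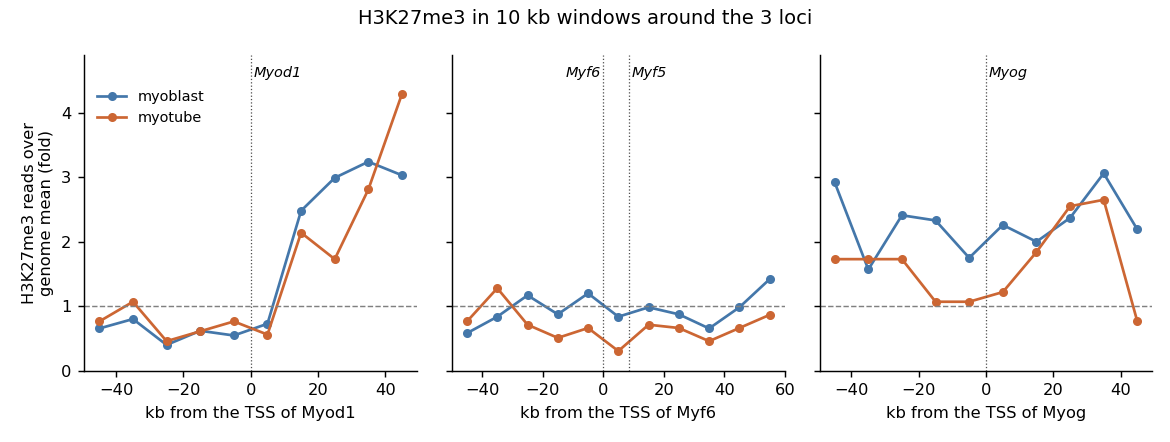
H3K27me3 in 10 kb windows around the 3 loci as fold over the genome mean in myoblasts (blue) and myotubes (orange), with the distance from the TSS in kb. The dashed line is the genome mean. The mark begins after Myod1, lies between 0.583-fold and 1.42-fold in myoblasts at Myf5 and Myf6, and around Myog runs from 0.765-fold to 2.65-fold in myotubes.

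The deposited peaks gave a coarser picture. The lists deposited with the myoblast H3K27me3 and H3K27ac samples bear each other's names, and their content went against the labels. The peaks deposited with H3K27me3 held H3K27ac reads at 36.4-fold and H3K27me3 reads at 0.804-fold, and those deposited with H3K27ac held 0.588-fold and 6.76-fold. As deposited, the H3K27me3 list of myoblasts had a peak at the promoters of Myod1, Myf5 and Myf6 and the H3K27ac list at 0 of 4; with the lists exchanged, H3K27ac had 3 and H3K27me3 0. The elements above were built on the list rich in H3K27ac reads. An H3K4me3 peak lay at 3 of 4 promoters in myoblasts and 4 of 4 in myotubes, and an H3K4me2 peak at 4 and 3. In myotubes an H3K27ac peak lay at 4 of 4, an H3K36me3 peak at 2, Myod1 and Myog, and an H3K27me3 or H3K4me1 peak at 0. The myotube H3K4me3 peak of Myog spanned 4141 bp with a score of 2585 and its myoblast peak 1761 bp with a score of 68.7, where the score is the authors' peak score and has a minimum of 50. Myod1 had myotube H3K4me3 peaks with scores of 357 and 486 and a myoblast one of 310, and Myf5 had 265 in myotubes and 524 in myoblasts.

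To find promoters with a similar pattern, the root mean square difference of log2 levels over all 12 libraries was computed between each member and every other gene. Closest to Myog were Nrap at 0.49, which encodes a protein of assembling myofibrils, Gm14221 at 0.53 and Tnnt1, the slow skeletal troponin T, at 0.56. Closest to Myod1 were Ocel1 at 0.59, Stx5a at 0.60 and Adnp at 0.63, to Myf5 Snx24 at 0.28, Inpp5f at 0.32 and Malt1 at 0.33, and to Myf6 Dpep1 at 0.51, Tbc1d10c at 0.52 and C1rl at 0.55. Members were not each other's closest matches. Myod1 and Myf5 were 0.88 apart, with 1.52% of promoters closer to Myod1 than Myf5 was and 17% closer to Myf5 than Myod1 was, and Myf6 and Myog were 2.04 apart.

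Among other genes of the pathway, most muscle targets were called higher in myotubes for H3K4me3, H3K27ac and H3K36me3, and fewer for H3K4me2 and H3K4me1, while few partners and upstream factors were called higher for any mark. Of 18 targets tested, 13 were called higher in myotubes for H3K4me3 and 0 lower, with a median ratio of 10.7 beside 0.869 over all promoters tested, of which 3.88% were called higher and 8.03% lower. For H3K27ac 11 of 18 were called higher and 0 lower, median 6.1 beside 0.577, with 5.96% and 40.9% of all promoters tested called. For H3K36me3 over gene bodies it was 11 of 18 and 0, median 3.62 beside 1.01, with 7.55% and 7.1% of all bodies. For H3K4me2 9 of 18 targets were called higher and 1 lower, median 2.51 beside 0.59, where 2.54% and 36.6% of all promoters were called. For H3K4me1 4 of 17 were called higher and 3 lower, median 1.03 beside 0.861, where the shares were 9.94% and 20.5%, so that the lower calls were near the background. The 18 partners and upstream factors, among them the E-proteins, Id proteins, Mef2 and Pax genes, had 1 of 14 higher and 3 lower for H3K4me3, median 0.696, and 1 of 12 higher and 5 lower for H3K27ac, median 0.601, the latter share being near the background of 40.9%. For H3K4me2 they had 1 of 16 higher and 7 lower, median 0.574, and for H3K4me1 2 of 14 higher and 3 lower, median 0.899, again near the shares over all promoters. For H3K36me3 2 of 16 were called higher and 3 lower, median 0.932. The largest rise for H3K4me3 was at Mef2c, which cooperates with the family, with 1 and 88 reads, and the largest fall at Id3, an inhibitor that binds E-proteins in place of them, with 185 and 33 reads, 0.15 (0.1 to 0.218). For H3K27ac Acta1, skeletal actin, had 6 and 489 reads, 32.1 (14.6 to 87.8). Myh3, embryonic myosin, had 0 and 201 reads. With its count of 0 set to 3 reads the Myh3 ratio was 26.4, with an interval from 21.2. The largest fall for H3K27ac was at Id1 with 154 and 62 reads, 0.158 (0.116 to 0.214). For H3K4me2 these were embryonic myosin Myh3 with 7 and 116 reads and Mef2b with 27 and 4, and for H3K4me1 Myh3 with 8 and 37 and Id4 with 31 and 8. For H3K27me3 they were Eya2, a transcriptional cofactor, with 13 and 17 reads, a ratio of 1.83 (0.837 to 4.1), and Mdfi, an inhibitor of the family, with 29 and 4, 0.193 (0.0493 to 0.55). For H3K36me3 they were Myh3 with 47 and 485 reads and Id3 with 73 and 0. With its count of 0 set to 3 reads the Id3 ratio was 0.067, with an interval up to 0.0845.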

How the data were processed

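The authors sequenced 34-bp reads, aligned them to mm9 with Mosaik, called peaks per library with MACS, and deposited 1 line per uniquely aligned read, here read counts of 1, and peak lists whose score the authors' peak caller set, at least 50. Reads were extended to 150 bp and their midpoints counted on chromosomes 1 to 19 and X (2555806925 bases other than N) in promoters (1 kb either side of the TSS with most H3K4me3), gene bodies, set windows and 1 kb tiles. Genes came from GENCODE M1 (Ensembl 65), which is on the same build. Exact Poisson and conditional binomial 95% intervals (Python 3.11.15, numpy 2.4.6, scipy 1.17.1) cover counting error only, and with 1 library per group no test of the conditions exists. Reads sharing position and strand made up 0.417 to 3.14%. Ratios were scaled by total reads and called at 2-fold with 20 reads, and a count of 0 was set to 3 reads. Counting was tested on simulated data. The genes, lists and windows were chosen with earlier results of these data known. Named genes were the 4 members, the 3 closest promoters to each, the largest rise and fall per mark in the pathway list with at least 30 reads, and neighbours starting within 50 kb. Protein sequences were not used here. One sequence upstream of Myod1 is not reported here.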

Additional observations from a re-analysis of the deposited data

How the results depend on the processing

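Counts of calls depended on the setting mainly for the lower class. With ratios scaled by active promoters, 0 promoter pairs, 0 windows and 0 H3K27ac tiles were lower, against 1, 2 and 6. Scaled by windows without a peak, 4 promoter pairs were lower. The promoter count was 2 with 1 read per position, with thinned libraries, with 500 bp on either side or with 2 kb downstream, 0 with 2 kb on either side, and 5 at 1.5-fold. Thinning to the smallest library gave 23 H3K27ac tiles higher against 49 and 0 gene bodies lower against 1. Exchanging the myoblast H3K27me3 and H3K27ac lists gave 3 and 0 promoters in an H3K27ac and H3K27me3 peak, and a score of at least 100 left 7 of 12 myoblast overlaps. The causes were not tested. The pairs above the mean stayed between 13 and 19 in myoblasts and between 13 and 18 in myotubes, against 16 each, the promoter pairs called higher between 3 and 4, and no called value changed direction. Depth limits the promoter window of Myf6, the gene bodies and H3K27me3 most, since 3 reads equal 0.545 to 2.06-fold of the mean in a promoter. No paired analysis was possible because each group has 1 library.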

Other observations

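The genes that start within 50 kb of the family were described as neighbours. Ppfia4, a liprin of synapses and muscle that starts 42.9 kb downstream of Myog and runs towards it, had 163 H3K36me3 reads over its body in myoblasts, 1.64-fold, and 847 in myotubes, 13.9-fold, a ratio of 8.47 (7.16 to 10.1), while the body of Myog itself gave 1.57 (0.856 to 2.86). At the promoter of Ppfia4 H3K4me3 gave 11 and 46 reads, 3.52 (1.79 to 7.53), whereas H3K4me2 gave 145 and 93, 0.579 (0.441 to 0.756). Its H3K27me3 was 12 and 2 reads at the promoter and 278 and 154 over the body, 0.775 (0.632 to 0.947). Kcnc1, which starts 20 kb downstream of Myod1, had 340 and 224 H3K27me3 reads over its body, 2.96-fold and 2.73-fold, a ratio of 0.922 (0.775 to 1.09). Over the same body H3K4me1 gave 145 and 345 reads, 2.46 (2.02 to 3), and H3K27ac 14 and 140, 3.93 (2.27 to 7.38). Summed over 41879 bp, the body of Kcnc1 thus had H3K27me3 above the mean in both cell types, and more H3K4me1 and H3K27ac in myotubes. Such sums do not show that the marks lay at the same places. In the tiles 26 and 27 kb downstream of Myod1, myotubes had 16 and 28 H3K27ac reads and 1 H3K27me3 read each.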
